A study of Mus musculus with 12 samples.

Results

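Replicates 3 and 4 of the retinoic acid cultures labelled KD1 were set against replicates 1 and 2 of the same label, to see what varied between cultures that share a description. These 4 arrays were chosen by their titles, from 12 arrays in all. The pairs themselves were set by a readout that was already known, so every difference between them is given as a description with no test. Values are the deposited log2 summaries of probe sets, in which 1 unit is a doubling of array signal.

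The cells were R1, a line of mouse embryonic stem cells (ESCs) derived from a male embryo and grown on mitomycin-treated embryonic fibroblasts. The targeted gene, Smarcd1, codes for BAF60a, which is part of the BAF (SWI/SNF) complexes that remodel chromatin. RA KD1 cells carried a Smarcd1 knockdown, were differentiated for 4 days in 1 µM retinoic acid with leukemia inhibitory factor withdrawn, and gave replicates 3 and 4 and replicates 1 and 2. RA scrambled cells (2 arrays) had the same treatment and a scrambled control. Undifferentiated cells gave 2 arrays each of ESC KD2, a second Smarcd1 knockdown line, of ESC KD1 and of ESC scrambled. All groups were infected R1 derivatives. The labels speak of clones without numbering them, and do not say how the biological replicates of a group were kept apart. KD2 cells after retinoic acid were not analysed here.

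Retinoic acid acts through nuclear receptors that switch on genes such as Rarb and the Hox clusters, while the pluripotency factors of ESCs, among them Nanog, Sox2 and Pou5f1, are switched off. ESCs can also move towards extraembryonic endoderm, a lineage marked by Gata4, Gata6, Sox7 and the laminins of the basement membrane. BAF complexes move nucleosomes and are known to act both in keeping ESCs undifferentiated and in their differentiation.

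The targeted gene checks the labels. Smarcd1 read 6.50 and 6.44 on replicates 3 and 4, against 6.36 and 6.61 on replicates 1 and 2, and 8.84 and 8.64 on the RA scrambled arrays. The pairs overlapped, with a difference of -0.02, and each of the 4 arrays was below the scrambled ones. In ESCs Smarcd1 read 8.56 and 7.16 in KD2, 7.75 and 7.78 in KD1 and 8.67 and 8.68 in scrambled cells. For Smarcd1, the array labelled ESC KD2 replicate 1 thus read near the scrambled level, against its label. For Fmr1nb and Uty, given below, the same array read near ESC KD2 replicate 2 and below both ESC scrambled arrays. Why Smarcd1 read high on it was not tested. Rarb, a retinoic acid receptor that retinoic acid induces, read 8.96 and 9.25 on replicates 3 and 4 and 9.38 and 8.55 on replicates 1 and 2, against 3.83 to 4.62 on the 6 ESC arrays. All 4 cultures read above every ESC array for Rarb.

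The arrays were more alike within a pair than across pairs. Over the 12988 genes above background on at least 2 arrays, the SD of the log2 differences was 0.193 between replicates 4 and 3 and 0.227 between replicates 2 and 1. Across the pairs it ran from 0.29 to 0.316. Genes differing by at least 1 log2 unit numbered 6 and 28 within the pairs, and 92 to 148 across them. The ESC KD2 arrays differed far more from each other, with an SD of 0.71 and 2240 such genes, and every comparison that uses them carries that spread. Array medians of the 4 cultures lay between 5.3 and 5.35.

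A gene was called split when both arrays of a pair lay at least 1 log2 unit from both arrays of the other pair. Of the 12988 tested genes, 43 were split (0.331%), 35 of them higher in replicates 3 and 4 (0.269%) and 8 lower (0.0616%). Only 5 genes kept a gap of 2 log2 units, all higher in replicates 3 and 4. With 1 array left out the counts grew: 53 higher without replicate 2, 54 without replicate 4, and 36, 18 and 20 lower without replicates 1, 2 and 4. Just inside the limit lay Podxl and Eif2s3y with gaps of 1.02 and Tspan8 with 1.01, and just outside it Abi2 and Sntb1 with 0.99 and Pofut2 with 0.98. The median difference over all tested genes was -0.03. Without the size limit, 2846 genes (21.9%) did not overlap with replicates 3 and 4 higher, and 4106 (31.6%) did not overlap with them lower. Of the split genes, 4 passed the filter through 1 pair alone, so their split is partly a matter of that filter. These were Mpeg1, Slc6a2 and Thsd7b through replicates 3 and 4, and Tns4 through replicates 1 and 2.

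**Figure D1:**
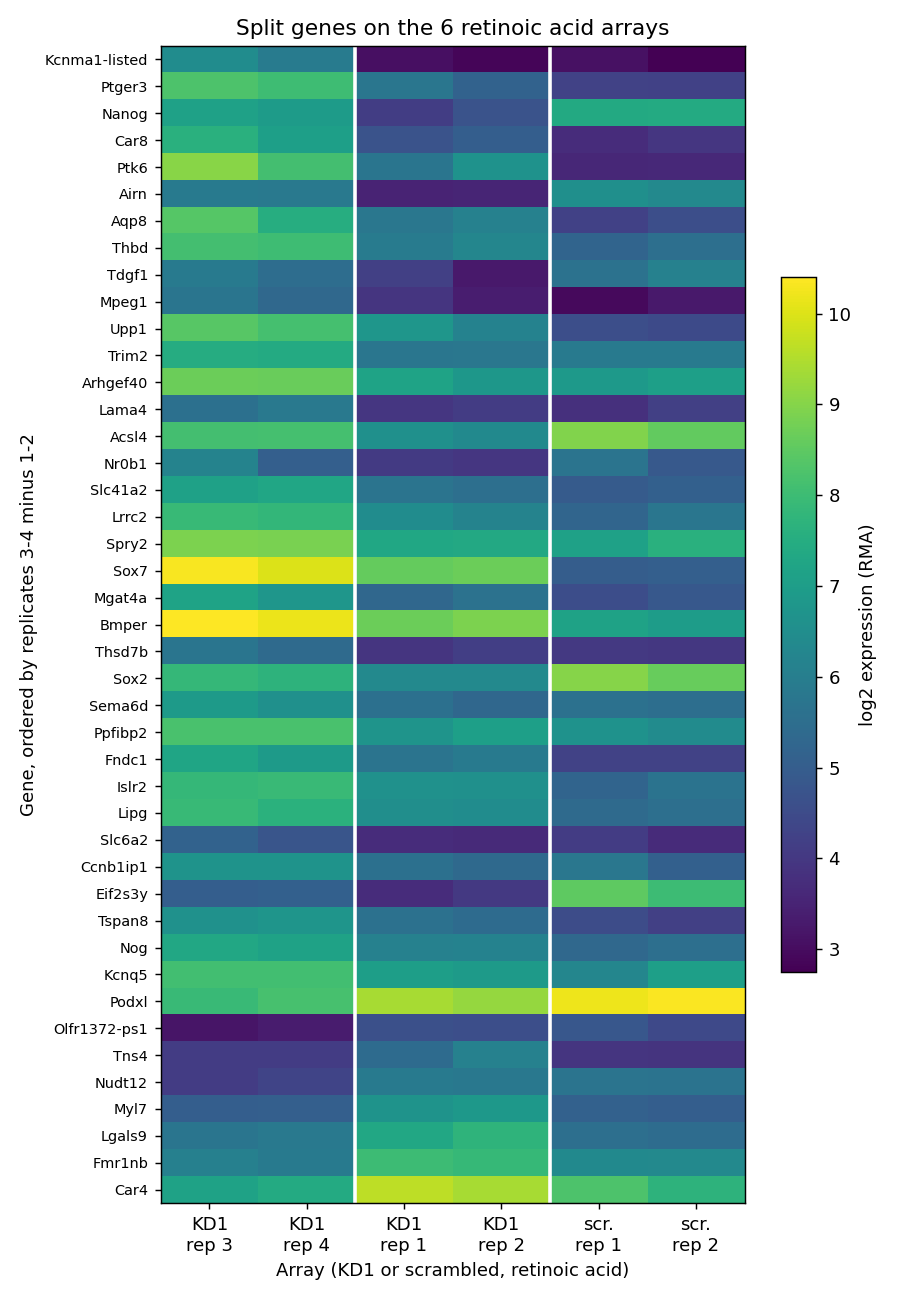
Log2 expression (colour) of the 43 split genes in rows, ordered by the difference of the pair means, on the 6 retinoic acid arrays in columns: KD1 replicates 3 and 4, KD1 replicates 1 and 2, then scrambled. The 35 upper rows are brighter in replicates 3 and 4 and the 8 lower rows darker, while the scrambled arrays side with one pair in some rows and with the other pair, or neither, in others.

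The largest split belonged to a probe set listed under Kcnma1, the gene of the calcium-activated BK potassium channel. It read 6.46 and 5.94 on replicates 3 and 4, against 3.05 and 2.84 on replicates 1 and 2, a 9.54-fold difference of the pair means. On the RA scrambled arrays it read 3.08 and 2.75. In ESCs it read 7.37 and 9.14 in KD2, against 2.75 and 3.01 in KD1 and 2.88 and 3.09 in scrambled cells. It was high on 4 of the 12 arrays, those of replicates 3 and 4 and of ESC KD2, and near 3 on the others.

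Which transcript gave that signal is not settled. The probe set used lists 4 accessions and 0 RefSeq transcripts. A second probe set listed under Kcnma1, with 17 RefSeq transcripts among 20 accessions and 0 shared with the first, read 3.03 to 3.59 on all 12 arrays. It gave 3.35 and 3.51 on replicates 3 and 4 and 3.34 and 3.03 on replicates 1 and 2. The mean of both probe sets differed by 1.75 between the pairs. No statement about the BK channel is therefore made, and its beta subunits Kcnmb1, Kcnmb2, Kcnmb3 and Kcnmb4 each overlapped or differed by at most 0.38 between the pairs. Of 9 tested genes in a list of the channel, its subunits and related channels, 4 lay higher in replicates 3 and 4 without overlap, the Kcnma1-listed probe set among them, and 0 lower, against 21.9% and 31.6% of all tested genes. Lrrc38, an auxiliary subunit, read 6.39 and 5.99 against 4.97 and 5.36 on replicates 1 and 2.

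Fmr1nb, an X-linked gene next to Fmr1 known for its expression in testis, ran the other way. It read 6.07 and 5.91 on replicates 3 and 4, against 7.99 and 7.88 on replicates 1 and 2. The ESC KD2 arrays read 5.60 and 5.38, the ESC KD1 arrays 8.30 and 8.63 and the ESC scrambled arrays 7.85 and 7.94. After retinoic acid the scrambled arrays read 6.38 and 6.34, beside replicates 3 and 4.

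**Figure D2:**
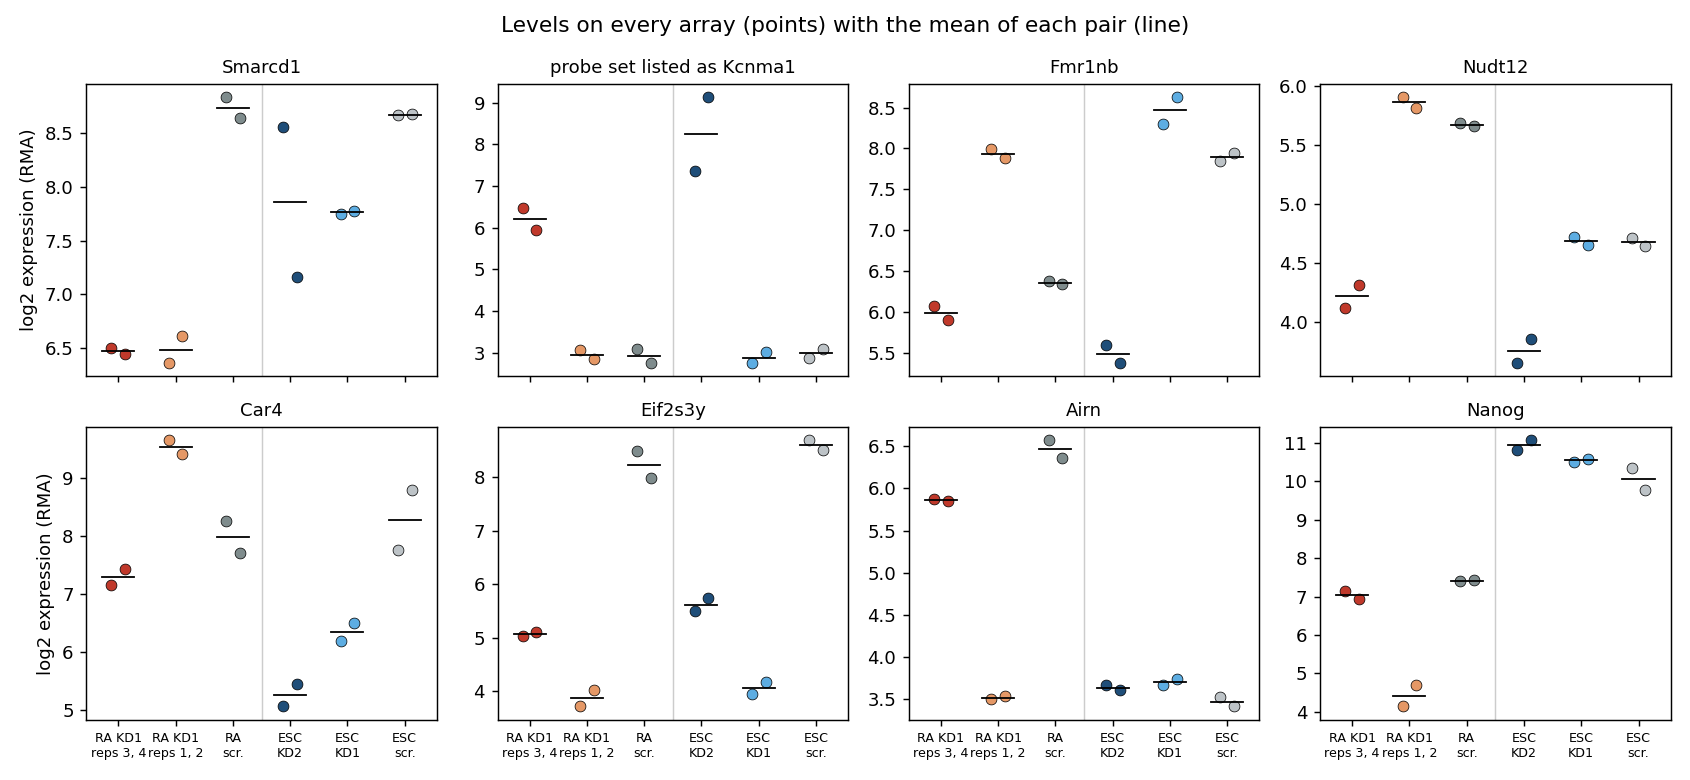
Log2 expression (vertical axis) of Smarcd1, the probe set listed as Kcnma1 and 6 split genes on every array, with RA KD1 replicates 3 and 4 left of replicates 1 and 2 and the ESC groups right of the grey line; horizontal lines are means of 2 arrays. For the Kcnma1-listed probe set, Fmr1nb, Nudt12, Car4 and Eif2s3y the ESC KD2 arrays differ from the ESC KD1 arrays in the direction in which replicates 3 and 4 differ from replicates 1 and 2, whereas for Airn the ESC arrays are all low and for Smarcd1 the RA KD1 pairs overlap.

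These values raised the question of how the KD2 and KD1 lines differ in ESCs, which was tested on arrays outside RA KD1. The ESC arrays tested are those whose Kcnma1-listed and Fmr1nb values raised the question. For those readings the test is therefore no independent support. In a limma fit of the 8 arrays other than RA KD1, 8 of 12988 genes (0.0616%) passed a Benjamini-Hochberg adjusted p of 0.05 between ESC KD2 and ESC KD1, with 1478 at an unadjusted p under 0.05. Of these 3 were higher (0.0231%) and 5 lower (0.0385%) in ESC KD2. The Kcnma1-listed probe set was among the 3, but it passed the filter only through arrays on which it was high, so no p is given for it. Fmr1nb fell by 2.98 ± 0.19 (SE, limma adjusted p = 0.00425). Both were split in the same direction between the retinoic acid pairs. Of the other 6 called genes, Dab2 and Nxt2 were lower in ESC KD2 and lower in replicates 3 and 4 without overlap, with differences of -0.33 and -0.42. Srgn, Gpc3, H2bc18 and Myof overlapped between the pairs. Srgn, a proteoglycan core protein, read 11.12 and 10.90 on replicates 3 and 4 and 10.46 and 10.96 on replicates 1 and 2, though ESC KD2 lay at 4.59 and 4.51 and ESC KD1 at 8.24 and 7.70.

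The number of calls between the lines rests on single arrays. Without the array labelled ESC KD2 replicate 1 it was 4157, without ESC KD2 replicate 2 it was 1493, and limma called 0 genes without either ESC KD1 array (713 and 741 at an unadjusted p under 0.05). A fit of the 4 arrays compared also called 0, with 782 at an unadjusted p under 0.05. These counts touch the tests, not the array values given here.

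More split genes moved with the lines without passing the test. Nudt12, an enzyme that cleaves NADH and NAD caps, read 4.12 and 4.31 on replicates 3 and 4, against 5.91 and 5.82 on replicates 1 and 2. In ESC KD2 it read 3.65 and 3.85, against 4.72 and 4.65 in ESC KD1 (difference -0.93, limma adjusted p = 0.116). Car4, a membrane-anchored carbonic anhydrase, read 7.16 and 7.43 on replicates 3 and 4, against 9.64 and 9.41 on replicates 1 and 2, and 5.06 and 5.44 in ESC KD2 against 6.19 and 6.49 in ESC KD1 (adjusted p = 0.286). Neither gene overlapped between the pairs or between the lines.

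Over the whole set the match was partial. Of the 8 genes split lower, 6 were also lower in ESC KD2 than in ESC KD1 without overlap (Car4, Fmr1nb, Nudt12, Podxl, Tns4 and Olfr1372-ps1), 0 were higher and 2 overlapped. The gap between the lines was only 0.24 for Tns4 and 0.01 for Olfr1372-ps1. Both read at most 3.85 on those ESC arrays, near the low end, so they add little to the match. Across all tested genes 20.7% lay lower in ESC KD2 without overlap. Of the 35 genes split higher, 9 were higher in ESC KD2, 10 lower and 16 overlapping, where 14.2% of all tested genes lay higher. By the same gap of 1 log2 unit, 12 genes (0.0924%) were higher and 50 (0.385%) lower in ESC KD2. The genes split the same way in both settings were 3, the Kcnma1-listed probe set, Eif2s3y and Fmr1nb, or 6.98% of the 43 and 4.84% of the 62. As a description across genes, which are no independent replicates, the difference between the pairs and that between the lines had a Pearson correlation of 0.115, which was 0.008 without ESC KD2 replicate 1 and 0.188 without ESC KD2 replicate 2. From which line or clone replicates 3 and 4 were grown was not tested, and the labels call all 4 cultures KD1.

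**Figure D3:**
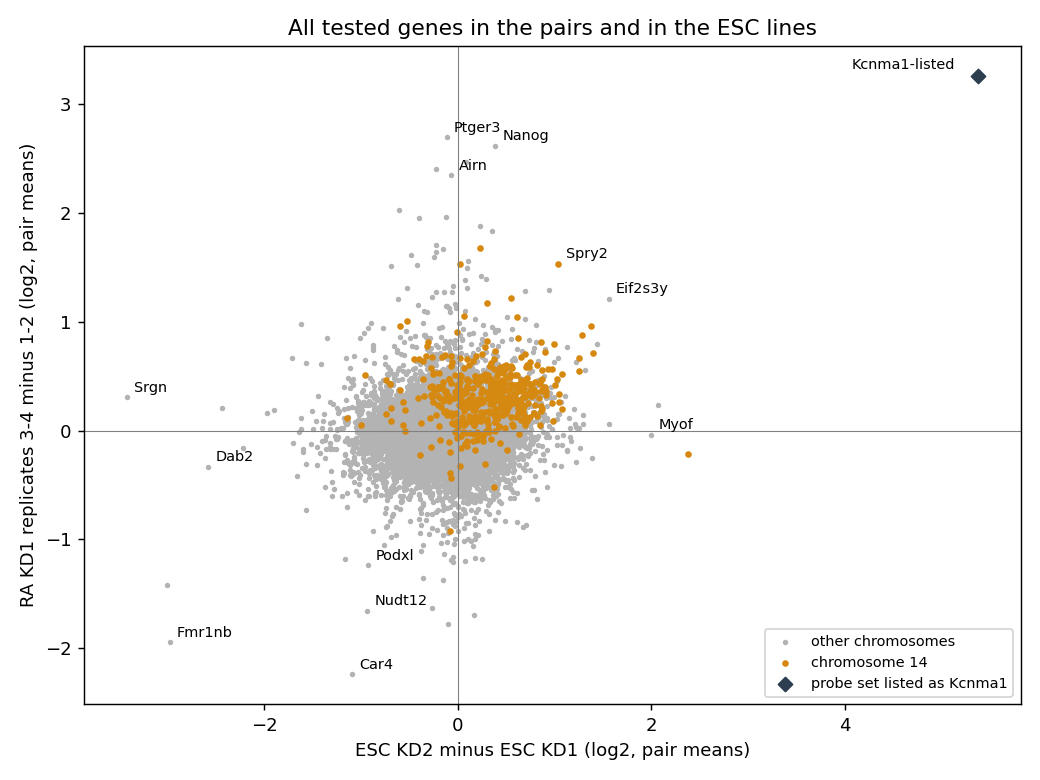
Difference of the pair means, RA KD1 replicates 3 and 4 minus replicates 1 and 2 (vertical axis, log2), against ESC KD2 minus ESC KD1 (horizontal axis, log2) for the 12988 tested genes, 1 point per gene. The Kcnma1-listed probe set (diamond) and Fmr1nb lie far out on the diagonal, Ptger3, Nanog and Airn lie high near the vertical axis, and genes of chromosome 14 (orange) are shifted up and to the right.

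A whole chromosome moved with the pairs. The 450 tested genes on chromosome 14 lay higher in replicates 3 and 4 by a median of 0.35 log2 units after the median of all tested genes was removed, a 1.27-fold shift. It was 0.37 for replicate 3 and 0.35 for replicate 4 against the mean of replicates 1 and 2. Of these genes 73.8% lay higher in replicates 3 and 4 without overlap and 2.44% lower, against 15.7% to 21.9% higher on the 18 chromosomes other than 1, 14 and Y. Against the RA scrambled mean, chromosome 14 stood at 0.36 and 0.36 on replicates 3 and 4 and at 0.05 and 0.03 on replicates 1 and 2.

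Chromosome 1 showed a smaller shift. Its 700 genes had a median of 0.22, with 0.21 and 0.23 for replicates 3 and 4, a 1.16-fold difference, and 59.4% of them lay higher without overlap. The medians of the 18 other chromosomes ran from -0.04 to 0.01. Both shifts ran along the entire chromosome: in 5 equal blocks of genes in chromosomal order the medians were 0.31 to 0.38 on chromosome 14 and 0.19 to 0.25 on chromosome 1.

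The ESC lines held the same shifts in part. Against the mean of the ESC KD1 arrays, chromosome 14 stood at 0.33 on ESC KD2 replicate 1 and 0.35 on replicate 2. Chromosome 1 stood at 0.15 on ESC KD2 replicate 1 and at 0.01 on replicate 2. Chromosome 8, in contrast, was low in all 4 RA KD1 cultures and on every ESC knockdown array. Against the RA scrambled mean it stood at -0.33 and -0.32 on replicates 3 and 4 and at -0.29 and -0.28 on replicates 1 and 2. Against the ESC scrambled mean it stood at -0.32 and -0.21 in ESC KD2 and at -0.31 and -0.29 in ESC KD1. No DNA was measured, so the copy number of these chromosomes was not tested.

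**Figure D4:**
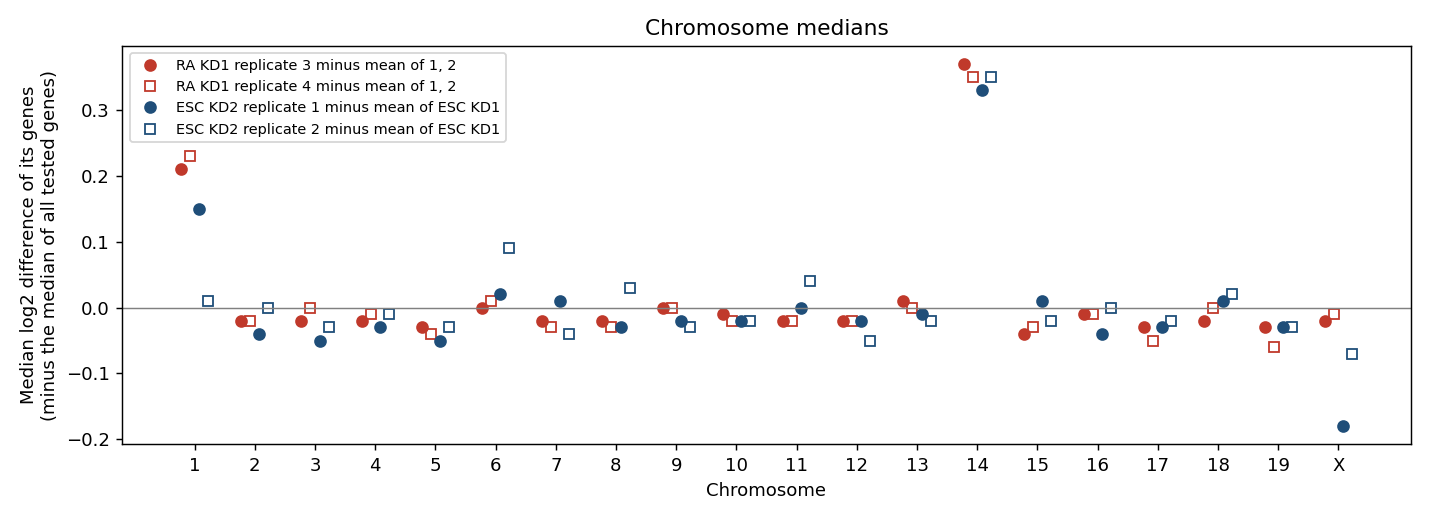
Median log2 difference of the genes on each chromosome, minus the median of all tested genes (vertical axis), for RA KD1 replicates 3 and 4 against the mean of replicates 1 and 2 (red) and for the ESC KD2 arrays against the mean of ESC KD1 (blue). Chromosome 14 stands at 0.33 to 0.37 in all 4 series, and chromosome 1 is raised in replicates 3 and 4 and on ESC KD2 replicate 1 but stands at 0.01 on ESC KD2 replicate 2.

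By their listed symbols 5 of the 43 split genes lie on chromosome 14, the Kcnma1-listed probe set among them, and 3 on chromosome 1. That is 1.11% of the tested genes of chromosome 14 and 0.429% of those of chromosome 1, where 0.331% of all tested genes were split. Sox7, an endoderm transcription factor, read 10.32 and 10.01 on replicates 3 and 4, against 8.58 and 8.69 on replicates 1 and 2. Spry2, an inhibitor of growth factor signalling, read 8.89 and 8.86 against 7.31 and 7.38. Arhgef40 read 8.69 and 8.65 against 7.19 and 6.81, and Ccnb1ip1, a ubiquitin ligase of meiosis, 6.67 and 6.67 against 5.57 and 5.36. Their differences ran from 1.21 to 1.67. The gap of 1 log2 unit that chose these genes already exceeds the chromosome's median, so nothing is read from their size beside it. Chromosome 11 held 7 split genes (0.633% of its tested genes), of which Car4, Lgals9, Myl7, Tns4 and Olfr1372-ps1 were lower and Upp1 and Nog higher.

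Of 4 tested genes on the Y chromosome only Eif2s3y was split. Without the size limit 2 of them lay higher in replicates 3 and 4 and 1 lower, against 21.9% and 31.6% of all tested genes. Eif2s3y, a translation initiation factor subunit, read 5.03 and 5.11 on replicates 3 and 4, against 3.71 and 4.02 on replicates 1 and 2, and 8.49 and 7.98 on the RA scrambled arrays. In ESCs it read 5.49 and 5.74 in KD2, 3.94 and 4.17 in KD1 and 8.69 and 8.51 in scrambled cells. KD2 exceeded KD1 by 1.56, which did not pass the test (limma adjusted p = 0.0738). Uty, a Y-linked histone demethylase relative, overlapped between the pairs, with 2.69 and 3.15 on replicates 3 and 4 and 3.19 and 2.82 on replicates 1 and 2, against 7.64 and 7.30 on the RA scrambled arrays. In ESCs Uty read 3.10 and 2.71 in KD2, 2.96 and 3.35 in KD1 and 7.51 and 8.08 in scrambled cells. Both genes were thus below scrambled cells on every knockdown array. Kdm5d, Usp9y, Zfy1 and Zfy2 were below the filter.

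Pluripotency genes were the group with most split members. Nanog, the homeodomain factor of the ESC state, read 7.14 and 6.94 on replicates 3 and 4, against 4.14 and 4.71 on replicates 1 and 2, and 7.40 and 7.43 on the RA scrambled arrays. Its promoter is shown because Nanog had the largest split of any pluripotency gene and because Sox2, whose product is known to bind there with Oct4, was split too. The 250 bases before its start lie at chr6:122707315-122707564 (GRCm38.p6, RefSeq, plus strand, 1 of 2 listed starts), and the capitals mark the octamer core TTTGCAT followed after 1 base by the Sox core ACAATG, the known joint Oct4 and Sox2 element, whose first base lies 151 bases before the start.
Nanog: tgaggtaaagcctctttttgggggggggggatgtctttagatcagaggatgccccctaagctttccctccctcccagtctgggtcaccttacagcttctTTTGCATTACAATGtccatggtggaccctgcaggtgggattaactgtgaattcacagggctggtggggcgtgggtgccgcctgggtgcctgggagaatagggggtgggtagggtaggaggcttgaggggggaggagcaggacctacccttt
On either strand that arrangement occurred in 2 of 32851 promoter windows of this length (0.00609%), both of them Nanog windows. The letters searched were those of the Nanog site itself, so its window had to hold them. Variant forms of the element were not counted. The windows of the other split pluripotency genes do not hold these letters there, from which nothing follows about binding.

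Sox2 read 7.84 and 7.70 on replicates 3 and 4, against 6.35 and 6.35 on replicates 1 and 2, and 9.00 and 8.63 on the RA scrambled arrays. Tdgf1, the Nodal co-receptor Cripto, read 5.89 and 5.48 against 4.20 and 3.26 on replicates 1 and 2, and 5.64 and 6.10 on the RA scrambled arrays. Nr0b1, an orphan nuclear receptor also called Dax1, read 6.17 and 5.07 against 4.05 and 3.96, and 5.69 and 4.88 on the RA scrambled arrays. For Nanog, Tdgf1 and Nr0b1 replicates 3 and 4 lay at or near the scrambled level and replicates 1 and 2 below it, whereas for Sox2 all 4 cultures lay below scrambled.

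These 4 genes fell on differentiation of the scrambled cells. RA scrambled minus ESC scrambled was -2.64 ± 0.23 for Nanog (SE, limma adjusted p = 0.000231), -1.82 ± 0.20 for Sox2 (adjusted p = 0.000563), -6.31 ± 0.24 for Tdgf1 (adjusted p = 1.23e-05) and -5.30 ± 0.49 for Nr0b1 (adjusted p = 0.000291). All RA KD1 cultures were far below the ESC arrays, where Nanog read 9.76 to 11.06. Of 30 pluripotency genes, all tested, 15 lay higher in replicates 3 and 4 without overlap and 3 lower, against 21.9% and 31.6% of all tested genes, with a median difference of 0.16 against -0.03 for all tested genes. Esrrb, a nuclear receptor, and Gdf3, a growth factor, were higher in replicates 3 and 4 without reaching the gap of 1, with 5.17 and 4.76 against 3.90 and 4.15, and with 5.22 and 5.11 against 4.15 and 4.46 on replicates 1 and 2. Pou5f1, encoding Oct4, overlapped, with 6.66 and 6.45 on replicates 3 and 4 and 6.44 and 7.27 on replicates 1 and 2. On the RA scrambled arrays Pou5f1 read 5.80 and 5.91, below all 4 cultures. Against RA scrambled cells, 8 of the 30 genes passed the limma test as higher in RA KD1 and 3 as lower. Over all tested genes 22.7% passed in either direction. The lower place of replicates 1 and 2 for Nanog, Tdgf1 and Nr0b1 was therefore not general to the list. In bulk RNA, fewer cells of a type and less RNA per cell cannot be told apart, and this holds for every gene group here.

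Most extraembryonic endoderm genes were higher in RA KD1 than in RA scrambled cells. Of 26 tested, 21 passed the limma test as higher and 1 as lower, where 22.7% of all tested genes passed in either direction. The calls over all genes numbered 1526 and 1586 without RA scrambled replicates 1 and 2. Gata4, a lineage-defining factor, read 11.05 and 10.82 on replicates 3 and 4 and 10.45 and 10.57 on replicates 1 and 2, against 6.47 and 6.30 on the RA scrambled arrays. Of the 26 tested members of that list 11 lay higher in replicates 3 and 4, 5 lower and 10 overlapped, with a median difference of 0.20. The shares of all tested genes without overlap were 21.9% higher and 31.6% lower. Besides Sox7, Thbd was split: thrombomodulin, an anticoagulant receptor also made by parietal endoderm, read 8.12 and 8.01 on replicates 3 and 4, against 5.94 and 6.27 on replicates 1 and 2, and 5.22 and 5.55 on the RA scrambled arrays.

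The list did not move one way. Cubn, a nutrient uptake receptor of visceral endoderm, read 7.80 and 7.60 on replicates 3 and 4, against 8.77 and 9.47 on replicates 1 and 2. Ttr, a hormone carrier of visceral endoderm, read 4.30 and 4.12 against 4.66 and 5.68, and Cited1 7.04 and 7.07 against 7.73 and 8.27. The laminin genes Lama1, Lamb1 and Lamc1 differed by 0.31, 0.26 and 0.47 in the direction of replicates 3 and 4, from levels of at least 11.96 on every RA KD1 array. Cubn, Ttr, Cited1 and the laminins were singled out after their values were seen.

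Several of the most split genes were near the low end of the arrays elsewhere. Ptger3, a prostaglandin E2 receptor, read 8.26 and 8.03 on replicates 3 and 4, against 5.74 and 5.17 on replicates 1 and 2, and 4.27 and 4.22 on the RA scrambled arrays. Car8, a carbonic anhydrase relative, read 7.60 and 7.08 against 4.72 and 5.03, and 3.72 and 3.95 on the scrambled arrays. Ptk6, a tyrosine kinase of epithelia, read 9.04 and 8.12 against 5.72 and 6.65, and 3.61 and 3.63 on the scrambled arrays. For these genes, and for the water channel Aqp8 with 8.39 and 7.52 against 5.77 and 6.11, all 4 RA KD1 arrays lay above both scrambled arrays and replicates 3 and 4 lay highest. On the 6 ESC arrays none of the 4 genes exceeded 4.90.

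Upp1, a uridine salvage enzyme, read 8.41 and 8.13 on replicates 3 and 4, against 6.76 and 6.13 on replicates 1 and 2, and 4.59 and 4.47 on the RA scrambled arrays. It differs from the preceding genes in that ESCs expressed it at 8.50 to 10.14. Differentiation lowered it in scrambled cells by 4.03 ± 0.27 (SE, limma adjusted p = 8.72e-05). Trim2, a ubiquitin ligase, read 7.50 and 7.42 on replicates 3 and 4, above replicates 1 and 2 at 5.76 and 5.77 and the scrambled arrays at 5.87 and 5.90. Mpeg1, a pore-forming protein known from macrophages, read 5.72 and 5.33 against 3.93 and 3.37, and 2.95 and 3.28 on the scrambled arrays. The blood cell marker Ptprc read 3.22 to 3.35 on the 4 cultures.

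Among secreted regulators, Bmper and Nog, both binders of bone morphogenetic proteins, were split higher. Bmper read 10.40 and 10.18 on replicates 3 and 4, against 8.68 and 8.89 on replicates 1 and 2, and 7.15 and 6.97 on the RA scrambled arrays. Nog read 7.33 and 7.17 against 6.11 and 6.14, and 5.33 and 5.53 on the scrambled arrays. Id1, a common target of that pathway and chosen after its values were seen, read 7.53 and 7.62 against 8.44 and 8.71 on replicates 1 and 2. Of 23 tested Wnt and Nodal antagonists and related inhibitors, 9 lay higher in replicates 3 and 4 and 7 lower, against 21.9% and 31.6% of all tested genes, with a median difference of 0.06.

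The imprinted noncoding RNA Airn, transcribed through Igf2r on the paternal allele and known to silence that allele, was split with almost no spread within a pair. It read 5.87 and 5.85 on replicates 3 and 4, against 3.50 and 3.53 on replicates 1 and 2, and 6.57 and 6.36 on the RA scrambled arrays. The 6 ESC arrays read 3.41 to 3.74, beside replicates 1 and 2. RA scrambled minus ESC scrambled was 3.00 for Airn, with no p given, since Airn passed the filter only through arrays on which it was high. Igf2r, chosen after its values were seen, ran the other way between the pairs, with 9.19 and 9.16 on replicates 3 and 4, against 10.10 and 10.17 on replicates 1 and 2. It read 10.05 and 10.48 on the RA scrambled arrays, where Airn was also high, so the opposite order of the 2 genes held between the pairs and not across all retinoic acid arrays. Nothing in the sources used here says which strand or part of the locus each probe set reads. Of 22 tested imprinted genes 4 lay higher in replicates 3 and 4 and 8 lower, near the 21.9% and 31.6% of all tested genes.

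Replicates 1 and 2 lay above every other array for Myl7, Lgals9 and Tns4, as they also did for Car4 and Nudt12. Myl7, the atrial myosin light chain, read 5.05 and 5.07 on replicates 3 and 4, against 6.67 and 6.83 on replicates 1 and 2, and 5.13 and 5.03 on the RA scrambled arrays. Lgals9, a galectin, read 5.71 and 5.83 against 7.35 and 7.73, with 5.55 and 5.46 on the scrambled arrays. Tns4, a tensin of focal adhesions, read 4.12 and 4.12 against 5.41 and 6.10, with 3.93 and 3.89 on the scrambled arrays. Of 13 tested muscle and cardiac genes 0 lay higher in replicates 3 and 4, 4 lower, Myl7 among them, and 9 overlapped. The shares of all tested genes were 21.9% higher and 31.6% lower. Podxl, an anti-adhesive sialomucin, read 7.94 and 8.16 against 9.39 and 9.18, and 10.22 and 10.37 on the scrambled arrays.

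Simple epithelium markers leaned the same way with no split member. Of 18 tested, 12 lay lower in replicates 3 and 4 without overlap and 1 higher, with a median difference of -0.28. Cldn7, a tight junction protein, read 6.41 and 6.61 on replicates 3 and 4, against 7.23 and 7.37 on replicates 1 and 2. The keratin gene Krt18 read 10.55 and 10.67 against 11.38 and 11.20, and Cdh1, encoding E-cadherin, 8.89 and 9.10 against 9.61 and 9.58. The background share without overlap in that direction was 31.6% of all tested genes.

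**Figure D5:**
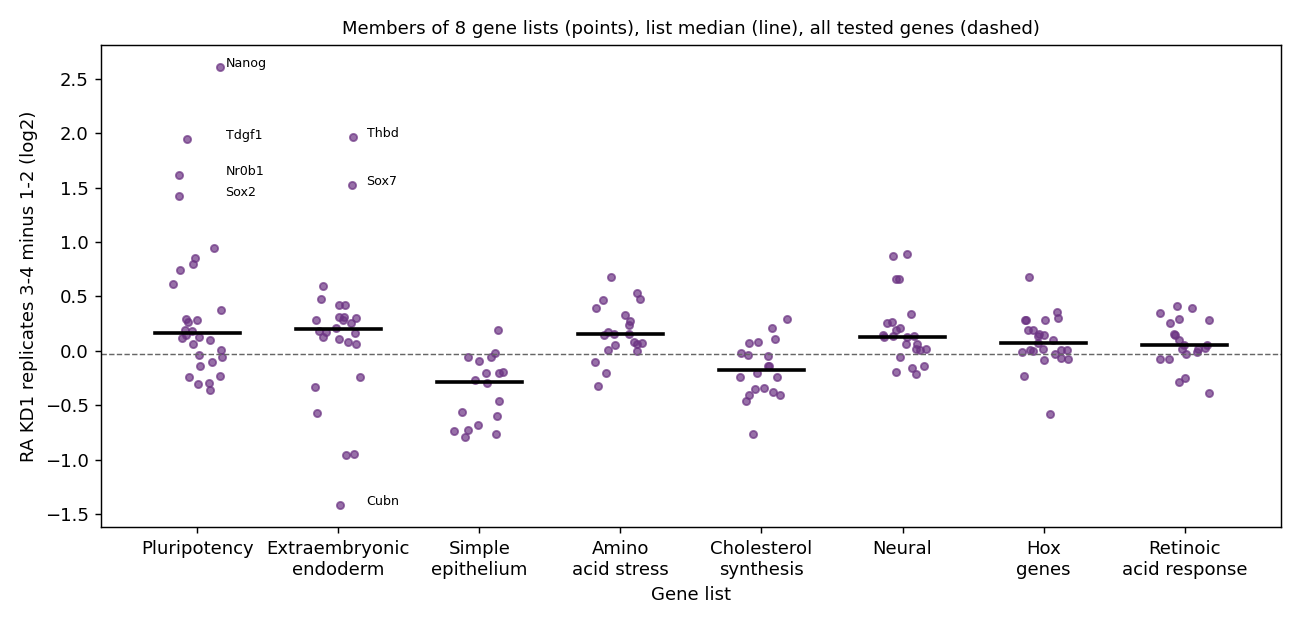
Difference of the pair means, RA KD1 replicates 3 and 4 minus replicates 1 and 2 (vertical axis, log2), for each tested member (points) of 8 gene lists, with the list median (line) and the median of all tested genes at -0.03 (dashed). Pluripotency has 4 members above 1.4, the extraembryonic endoderm list runs from -1.42 to 1.96, and simple epithelium lies mostly below 0.

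Trophectoderm genes had the lowest median of the lists, -0.39, with 1 of 10 tested members higher in replicates 3 and 4 and 5 lower. Krt7, a keratin of that list, read 6.90 and 7.02 on replicates 3 and 4, against 7.48 and 7.91 on replicates 1 and 2, while Cdx2, a defining factor of trophectoderm, overlapped at 4.56 to 4.98. Metallothionein and zinc transporter genes had 5 of 9 higher and 1 lower, with a median of 0.24. Amino acid stress genes had 12 of 21 tested members higher and 1 lower, with a median of 0.16, and neural genes 12 of 24 higher and 2 lower, with a median of 0.13. Tubb3, a neuronal tubulin, read 6.65 and 6.75 on replicates 3 and 4, against 5.97 and 5.65 on replicates 1 and 2. Cholesterol synthesis genes had 2 of 20 higher and 9 lower, with a median of -0.17, and glycolysis and hypoxia genes 6 of 25 higher and 12 lower, with a median of -0.10. Over all tested genes 21.9% lay higher and 31.6% lower without overlap. Markers of feeder cells and fibroblasts had 6 of 29 higher and 7 lower, with a median of -0.01. Their summary levels, as the median over the list, were 6.44 and 6.82 on replicates 3 and 4 and 6.61 and 6.61 on replicates 1 and 2.

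Most genes of the retinoic acid programme overlapped between the pairs. Of 25 tested Hox genes 6 lay higher in replicates 3 and 4, 1 lower and 18 overlapped, with a median of 0.07. Among all tested genes 21.9% lay higher and 31.6% lower without overlap. Of 21 retinoic acid response genes 3 lay higher, 1 lower and 17 overlapped, with a median of 0.05. Meis1, a Hox cofactor, read 9.30 and 9.46 on replicates 3 and 4 and 9.52 and 9.12 on replicates 1 and 2. Hoxb4 read 5.85 and 6.04 against 5.91 and 5.41. Both genes overlapped between the pairs.

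Differentiation of the scrambled cells gives an independent list against which the split can be read. In the 8-array fit 3799 genes (29.3%) passed between RA scrambled and ESC scrambled, 2179 higher after retinoic acid (16.8%) and 1620 lower (12.5%). The count was 1817 and 1564 without RA scrambled replicates 1 and 2, and 1803 and 2094 without ESC scrambled replicates 1 and 2. Of the 35 genes split higher in replicates 3 and 4, 5 were among those raised by differentiation and 10 among those lowered, the pluripotency genes and Upp1 among the 10. Of the 8 split lower, 3 were raised (Nudt12, Podxl and Olfr1372-ps1) and 1 lowered (Fmr1nb). Over all genes raised by differentiation the median difference between the pairs was -0.07, and over all genes lowered it was 0.

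Where the split genes stood against the scrambled cells varied by gene. For 10 genes replicates 3 and 4 but not 1 and 2 lay within 1 log2 unit of the RA scrambled mean: Acsl4, Airn, Nanog, Nr0b1, Tdgf1, Car4, Fmr1nb, Lgals9, Myl7 and Tns4. For 19 genes it was replicates 1 and 2 only, among them Spry2, Thbd, Trim2 and Nudt12, and for 14 genes it was neither pair. So neither pair was the one nearer to scrambled cells throughout.

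Genes called for KD1 after retinoic acid were also counted with each pair alone. With all 4 RA KD1 arrays, 2942 genes (22.7%) passed between RA KD1 and RA scrambled in the limma fit of 12 arrays. With replicates 3 and 4 alone 2112 passed (16.3%), and with replicates 1 and 2 alone 1778 (13.7%). Both of these fits called 1471 genes, 0 of them in opposite directions. A further 641 passed only with replicates 3 and 4 and 307 only with replicates 1 and 2. Each single-pair fit uses fewer RA KD1 arrays, and how much of the lower counts comes from that was not tested. These fits share the RA scrambled arrays. The count was 1526 and 1586 without RA scrambled replicates 1 and 2. Of the 43 split genes 20 passed with all 4 arrays, 34 with replicates 3 and 4 and 22 with replicates 1 and 2, from which nothing is read, since the same arrays chose them.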

How the data were processed

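RNA of 12 R1 ESC cultures was hybridised to Affymetrix mouse gene arrays. The deposited log2 values per probe set come from RMA, per the submitters' processing notes. For its version, background correction and annotation nothing is given in the sources used here. Groups and replicate numbers follow the sample titles. Of 35556 probe sets 21789 had 1 gene symbol in the platform table, 1621 had several and 12146 were not listed. They gave 19938 genes, and 999 of these had several probe sets, of which the brightest on average stood for the gene. Tested were the 12988 genes above percentile 40 of an array on at least 2 arrays. Chromosomes came from the RefSeq gene table (GRCm38.p6).

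The pairs of RA KD1 arrays were compared by description only. Group-means models were fitted with limma 3.58.1 in R 4.3.3: all 12 arrays for RA KD1 against RA scrambled (7 residual degrees of freedom, prior 4.58), and the 8 arrays without RA KD1 for the other contrasts (4 and 3.9), with Benjamini-Hochberg adjusted p under 0.05, two-sided. Since the labels do not say how cultures were kept apart, p-values reflect only the spread among arrays, some of which may be technical. The number of arrays limits the precision. The fits were tested on simulated data. The members, the 30 gene lists and the comparisons were chosen with earlier results of these data known. Named were Smarcd1 and Kcnma1, the 12 split genes with the largest difference in each direction, up to 4 split members of each list or else its largest difference, up to 8 genes per direction called between the ESC lines, and the Y-linked genes. Predicted genes, small RNAs and olfactory receptors were left out of the rule. All other genes named, among them single members of the gene lists, were chosen after their values were seen. Alternatives covered the filter, scaling, gap, probe sets, array weights, a replicate block and leaving out arrays. Descriptions used pandas 2.3.3 and numpy 2.4.6 (Python 3.11.15), and figures matplotlib 3.10.9.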

Additional observations from a re-analysis of the deposited data

Results flagged for a closer look

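Among 187 named genes and list members, the gap between the highest or lowest of the 4 RA KD1 arrays and the nearest of the others took up most of the range in 4 genes. Chance alone gives about 1 such gene in 20, more than were found. The 187 include the split genes, whose choice by a gap between the pairs works against such a pattern. Nothing is therefore read from the low number. Crabp2, a retinoic acid carrier, read 6.84 on replicate 2 and 7.68 to 7.85 on the others. Klf4 read 8.15 on replicate 1 and 8.66 to 8.70 on the others. Utf1 read 6.47 on replicate 3 and 6.09 to 6.15 on the others. Afp read 3.63 on replicate 1 and 3.42 to 3.43 on the others, near the low end of the arrays.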

How the results depend on the processing

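Of 77 values of 8 single genes under the alternatives, 75 moved by less than the spread between arrays. Smarcd1, at -0.02, ran from -0.14 to 0.11, and the other 7 genes kept their direction. The Kcnma1 difference was 1.75 with probe sets averaged, and that of Airn 2.30 after cyclic loess. The 35 genes split higher became 185 at a gap of 0.5, 5 at a gap of 2 and 55 by a pair mean difference of 1 without overlap, and 41 to 54 with 1 RA KD1 array left out. The 8 split lower became 93, 0 and 27 by the same rules, 5 with the filter at percentile 60, and 11 to 36 with 1 array left out. The median of chromosome 1 was 0.11 without the filter and 0.26 at percentile 60, and that of chromosome 14 was 0.20 without the filter, 0.41 at percentile 60, 0.37 with a filter on the mean, 0.36 after cyclic loess, 0.34 with probe sets averaged and 0.35 to 0.37 with 1 array left out. Calls for RA KD1 against RA scrambled were 1526 to 2557 with 1 array left out, 1778 with only RA KD1 replicates 1 and 2, 4734 with the 6 retinoic acid arrays and 4988 with array weights. Calls for RA scrambled against ESC scrambled were 1564 to 2094 with 1 array left out and 6806 with array weights. Calls for ESC KD2 against ESC KD1 were 24 without the filter, 0 to 4157 with 1 array left out, 0 with the 4 arrays compared, 351 with all 12 arrays and 2 with array weights. Their median difference between the pairs, -0.33 for the lower genes, was -1.94 at an adjusted p under 0.01, where Fmr1nb alone was left. The Pearson correlation was 0.008 to 0.188 with 1 array left out, 0.055 without chromosomes 8, 14, X and Y, and 0.043 without chromosome 1 as well, an alternative added after seeing the data. The cause of these changes was not tested, apart from the number of genes or arrays each alternative uses.

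Samples of different groups share only a number, with correlations of their deviations from -0.183 to 0.243. With the replicate block the calls were 1619 for RA KD1 against RA scrambled and 3 for ESC KD2 against ESC KD1. With the ESC KD2 numbers crossed, an alternative added after seeing the data because of the correlation of -0.183, the replicate block gave 5. Other results kept their direction and size.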

Other observations

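Probe sets with no listed gene or with several genes were not used in the report. Of 13767 such probe sets, 18 lay higher and 16 lower in RA KD1 replicates 3 and 4 than in replicates 1 and 2 by a gap of at least 1 log2 unit (0.247% together), and 1 of them was split in the same direction between ESC KD2 and ESC KD1. No expression filter was applied to these probe sets, and some of the split ones lay near the low end of the arrays. What each of them detects was not examined, so the counts are not read as counts of transcripts.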
